A study of Xenopus laevis with 12 samples.

Results

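The RNA splicing factor genes of Xenopus laevis animal caps were followed across 4 injection groups. Members were the probe sets with 1 gene symbol that starts with snrp, sf3a, sf3b, u2af, prpf, lsm followed by a digit, srsf or hnrnp, and where a symbol had several probe sets the one with the highest mean over the 12 arrays was kept. The rule gave 84 genes from 143 probe sets, of 11303 genes with 1 symbol and 32475 probe sets tested. There were 11 snrp, 11 sf3, 2 u2af, 10 prpf, 13 lsm, 15 srsf and 22 hnrnp genes. Symbols ending in .L and .S are homeologs, the copies of a gene on the long and the short chromosome of a pair in this allotetraploid frog.

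Most genes of vertebrates are transcribed with introns, which the spliceosome removes. Small nuclear ribonucleoproteins (snRNPs) recognise the ends of the intron and the branch point: each carries a ring of Sm proteins, encoded by snrp genes, or, in the U6 particle, a ring of Lsm proteins. The SF3 and U2AF proteins bring the U2 snRNP to the branch point and the 3′ splice site, and PRPF proteins assemble and drive the machine. SR proteins (srsf genes) and heterogeneous nuclear ribonucleoproteins (hnrnp genes) bind the transcript and shift the choice of splice sites, and in developing neural tissue a further set of regulators such as Nova and Celf proteins does so in a cell type manner.

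Embryos were injected in the animal pole at the 2-cell stage, the animal caps (blastula ectoderm) were cut out at stage 9 and cultured to stage 15. Each group had 3 arrays. The groups received lacZ mRNA as the control, kctd15 mRNA, wnt3a plus chordin mRNAs, or all of wnt3a, chordin and kctd15. Caps left alone form epidermis, Chordin blocks bone morphogenetic protein signals and turns them neural, and Wnt3a added to it gives neural crest. The study asked which genes kctd15, an inhibitor of neural crest formation, acts on in such caps. Repeats are numbered 1 to 3 in each group, and whether a number stands for its own batch of eggs is not said in the labels. The p-values measure the spread between these arrays, which may be technical. In whole caps, fewer cells of a type and less RNA per cell cannot be told apart.

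Values were log2 signals of Affymetrix 3′ arrays, which report on the 3′ end of a transcript and not on its splicing. The array medians lay between 7.17 and 7.28. The injected wnt3a was read at 12.76 ± 0.26 with wnt3a and chordin and at 5.90 ± 0.63 in lacZ caps (wnt3a.S, mean ± SD, n = 3). The probe set of kctd15.L went against the labels: it read 10.96 ± 0.26 in lacZ caps and 4.79 ± 1.43 on the arrays labelled kctd15, and 10.66 ± 0.40 against 5.16 ± 1.63 in the caps with wnt3a and chordin (SD, n = 3). No label says where in the kctd15 transcript this probe set lies. The groups are therefore named as their labels name them. Levels of chrd.1.S spanned 3.79 to 9.37 in lacZ caps and 8.50 to 10.38 in wnt3a+chordin caps. Muscle and notochord transcripts were uneven between repeats, and the mean of the muscle list was 7.92 on lacZ repeat 3, 7.52 and 7.40 on wnt3a+chordin repeats 2 and 3 and 8.52 on wnt3a+chordin+kctd15 repeat 2, against 5.08 to 6.63 on the other arrays. Caps with wnt3a and chordin had lost epidermal transcripts, with 12 of 18 list genes lower than in lacZ caps and 1 higher. These caps had gained pan-neural (12 of 14 higher) and neural crest transcripts (12 of 15 higher). In that comparison 24.2% of all probe sets were higher and 17.1% lower.

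The members' probe sets were bright for the most part. Their mean signals over the 12 arrays ran from 8.14 to 14.94 with a median of 12.3, against a median of 8.27 over all 11303 genes with the probe set chosen in the same way. Signals of different probe sets do not rank transcripts by abundance. No filter on low values was applied, so all 84 members were tested.

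With wnt3a and chordin most splicing factor transcripts rose, by modest amounts, and the others did not pass the test. Of the 84 members, 57 were higher in wnt3a+chordin caps than in lacZ caps and 0 were lower (limma, Benjamini-Hochberg adjusted p under 0.05 over all probe sets). Over all probe sets, 24.2% were called higher and 17.1% lower in that comparison, and the members' share was 67.9%. The median log2 difference of the members was 0.44, a 1.36-fold change, against 0.10 over all genes. Members' differences, each read by the chosen probe set, ran from -0.42 to 1.14, and 1 member passed 2-fold. The caps that received kctd15 gave the same comparison on 6 other arrays: 48 of 84 members were higher in wnt3a+chordin+kctd15 caps than in kctd15 caps and 0 were lower, where 23.6% of all probe sets were called higher and 18.5% lower. Their median was 0.39, a 1.31-fold change, with a range from -0.12 to 1.02. Fitting only the groups compared gave 50 and 31 higher members, and leaving out a repeat number, which removes 4 arrays, gave 24 to 42 and 17 to 27. Fewer of all 32475 probe sets were higher in these runs too. The counts were 7240 and 6496 with only the groups compared, and 4484 to 6225 and 5188 to 5843 without a repeat number. In the fit of all arrays they were 7855 and 7653.

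With the repeat number as a block, which takes arrays of the same number as pairs, 70 members were higher and 1 lower in wnt3a+chordin caps, where 32.6% of all probe sets were higher and 21.3% lower, and 66 were higher with kctd15 (30.5% and 24.0% of all probe sets). Without the 4 arrays highest in muscle genes, a choice made after the values were seen that leaves 1 wnt3a+chordin array assumed to vary like the others, 14 members were higher in wnt3a+chordin caps, with a median of 0.49, and 22 with kctd15, with a median of 0.38. There 11.8% and 18.4% of all probe sets were higher and 11.2% and 15.1% lower.

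Without the block, the same genes were called in both comparisons for the most part. The 46 members higher in both were 80.7% of the 57 and 95.8% of the 48, and 18.8% of all probe sets were higher in both. The overlap was also large over the whole array. There 6118 probe sets were higher in both, of 7855 higher without kctd15 and 7653 higher with it. A further 11 members passed only without kctd15 and 2 only with it, hnrnpm.L and srsf9.S. The call of srsf9.S was lost without any 1 kctd15 array or without wnt3a+chordin+kctd15 repeat 1 or 3 (adjusted p up to 0.106). For 53 of 84 members all 6 arrays with wnt3a and chordin lay above all 6 without, as they did for 19.9% of all probe sets, and 0 members showed the reverse, which 14.1% of probe sets did. Across the 84 members the log2 differences of the comparisons, which share no array, had a Pearson correlation of 0.83 and a Spearman correlation of 0.84. Over all 11303 genes these were 0.89 and 0.87.

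Brightness and the level of cell cycle transcripts moved with these values. Among the 477 genes at or above the members' median level, 38.4% were called higher and 18.0% lower in wnt3a+chordin caps, with a median of 0.22. This set was chosen after the values were seen, and it includes the members at or above that level. Of 26 cell cycle genes, 16 were higher and 0 lower in each of the comparisons. Over all probe sets 24.2% and 23.6% were higher and 17.1% and 18.5% lower. The mean level of the cell cycle list was 9.83 to 10.11 on the arrays without wnt3a and chordin and 10.76 to 11.01 on those with them. The part of either in the members' rise was not tested.

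**Figure D1:**
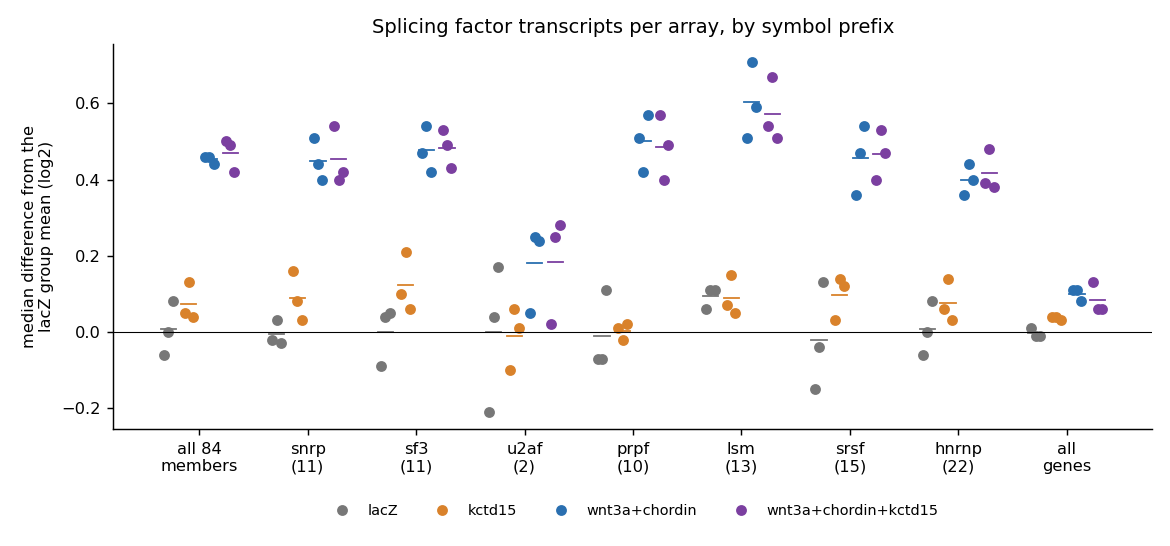
Median log2 difference from the lacZ group mean over all 84 members, over the genes of each symbol prefix and over all 11303 genes, 1 point per array and a line at each group mean (n = 3). The medians of all members lay between -0.06 and 0.13 on the 6 arrays without wnt3a and chordin and between 0.42 and 0.50 on the 6 with them.

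The snrp genes encode the Sm proteins and other snRNP proteins. In wnt3a+chordin caps 7 of 11 snrp genes were higher than in lacZ caps, and 6 of 11 in the comparison with kctd15 present. For this and the other prefixes, the shares of all probe sets called higher were 24.2% and 23.6%. Among the 477 genes at or above the members' median level they were 38.4% and 37.1%. The largest difference of the snrp genes was that of snrpd1.L, an Sm core protein. Its log2 signal was 12.20, 12.13 and 12.36 on the lacZ arrays, 12.40, 12.31 and 12.26 on the kctd15 arrays, 13.09, 13.06 and 13.01 with wnt3a and chordin, and 13.19, 13.08 and 12.97 with all 3 mRNAs. All 6 arrays with wnt3a and chordin lay at least 0.57 above the highest without. The differences were 0.82 ± 0.10 (SE, adjusted p = 0.000103) and, with kctd15, 0.76 ± 0.10 (adjusted p = 0.000177).

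Another Sm core protein, snrpd3.L, rose by 0.76 ± 0.14 (SE, adjusted p = 0.0014) and with kctd15 by 0.50 ± 0.14 (adjusted p = 0.0140). The second of these calls was lost without wnt3a+chordin+kctd15 repeat 2 or kctd15 repeat 3, with adjusted p up to 0.0534. Sm genes snrpf.S (0.46), snrpg.S (0.44) and snrpb.S (0.42) rose less, and each was also higher with kctd15 (0.50, 0.32 and 0.28). Of these, snrpg.S lost its call with kctd15 without wnt3a+chordin+kctd15 repeat 1 or kctd15 repeat 2 (adjusted p up to 0.0610), and snrpb.S without repeat 1 or 2 of the former or 1 or 3 of the latter (up to 0.0778). The U2 snRNP protein gene snrpb2.S rose by 0.67 ± 0.13 (SE, adjusted p = 0.00223), and its homeolog snrpb2.L by 0.37. The call of snrpb2.L was lost without lacZ repeat 1 or 3 or wnt3a+chordin repeat 2 or 3 (adjusted p up to 0.111). The U1 snRNP protein genes among the members, snrpa.S and snrpc.S, differed by 0.19 and 0.20 in wnt3a+chordin caps (adjusted p = 0.552 and 0.103), and snrpc.S passed with the block (adjusted p = 0.0304). A further U1 protein gene outside the symbol rule, snrnp70.L, was higher there by 0.29 (adjusted p = 0.0198), and with kctd15 it differed by 0.19 (adjusted p = 0.107). The other members of the prefix that passed only with the block were snrpb.L at 0.21 (adjusted p = 0.0794, and 0.0432 with the block) and snrpa1.S at 0.71 (0.0771 and 0.000276), where the 3 lacZ arrays alone spanned 11.49 to 12.02.

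Among the SF3 genes, whose proteins form the SF3a and SF3b parts of the U2 snRNP, 8 of 11 were higher in wnt3a+chordin caps and the same 8 were higher with kctd15. The SF3b scaffold protein gene sf3b3.L read 11.84, 11.83 and 11.79 on the lacZ arrays, 11.89, 11.97 and 11.79 with kctd15, 12.41, 12.47 and 12.35 with wnt3a and chordin, and 12.46, 12.46 and 12.32 with all 3 mRNAs. The groups with and without wnt3a and chordin did not overlap. Its differences were 0.59 ± 0.09 (SE, adjusted p = 0.000491) and 0.53 ± 0.09 (adjusted p = 0.000967).

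The gene of the branch point binding subunit, sf3b1.S, rose by 0.53 ± 0.11 (SE, adjusted p = 0.00267) and with kctd15 by 0.31 ± 0.11 (adjusted p = 0.0390). Without kctd15 repeat 1 or 3 or wnt3a+chordin+kctd15 repeat 2 or 3 the latter call was lost (adjusted p up to 0.125). The SF3a gene sf3a2.L rose by 0.56 in each comparison (adjusted p = 0.0123 and 0.0131), and the first call was lost without lacZ repeat 1 or wnt3a+chordin repeat 2 (adjusted p up to 0.0536). In the comparison with kctd15, sf3b4.L rose by 0.39 with an adjusted p of 0.0429, which rose to at most 0.151 without kctd15 repeat 1 or 3 or wnt3a+chordin+kctd15 repeat 1 or 2. The members that passed in neither comparison were sf3a1.L (0.23), sf3b6.S (0.38) and sf3b4.S (0.63), with adjusted p of 0.183, 0.302 and 0.0963 in wnt3a+chordin caps. With the block sf3b6.S passed in both (adjusted p = 0.0058 and 0.0133), sf3b4.S in wnt3a+chordin caps (0.00321) and sf3a1.L with kctd15 (0.0257). The U2AF genes, whose proteins read the polypyrimidine tract and the AG at the end of the intron, did not pass without the block. Their differences were 0.24 ± 0.16 for u2af1.S and 0.11 ± 0.12 for u2af2.S (SE, adjusted p = 0.257 and 0.513), and 0.28 and 0.10 with kctd15. With the block u2af1.S passed in both comparisons (adjusted p = 0.0483 and 0.0282).

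The PRPF genes had the highest share of calls, with 9 of 10 higher in wnt3a+chordin caps and the same 9 higher with kctd15. Whether the prefixes differ from each other was not tested. The leading member was prpf39.1.L, whose yeast counterpart belongs to the U1 snRNP. It read 9.73, 9.64 and 9.91 in lacZ caps, 9.73, 9.61 and 9.79 in kctd15 caps, 10.57, 10.68 and 10.72 with wnt3a and chordin, and 10.53, 10.53 and 10.50 with all 3 mRNAs. The lowest array with wnt3a and chordin exceeded the highest without by 0.59. The differences were 0.90 ± 0.10 (SE, adjusted p = 6.05e-05) and 0.81 ± 0.10 (adjusted p = 0.00012).

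Next were prpf38a.S, whose yeast counterpart belongs to the tri-snRNP, at 0.73 ± 0.12 and prpf4b.S, a kinase of splicing factors, at 0.69 ± 0.09 (SE, adjusted p = 0.000594 and 0.000142). The gene of the protein at the catalytic centre, prpf8.S, rose by 0.44 in each comparison (adjusted p = 0.00467 and 0.00487). The tri-snRNP bridge gene prpf6.L rose by 0.51 and, with kctd15, by 0.65 (adjusted p = 0.00794 and 0.00203), and prpf19.L, a ubiquitin ligase of the active spliceosome, by 0.46 and 0.55. The remaining calls were prpf18.L, prpf4.L and prpf31.S, between 0.41 and 0.51 in wnt3a+chordin caps. There prpf18.L was lost without lacZ repeat 2 (adjusted p = 0.0559), and prpf31.S without that array or wnt3a+chordin repeat 1 (up to 0.0685). Only prpf3.S did not pass, at 0.59 ± 0.40 (SE, adjusted p = 0.285), with lacZ arrays at 9.99, 10.10 and 11.55. With the block it passed in both comparisons (adjusted p = 0.0307 and 0.0212).

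Lsm genes were counted as those of the U6 ring and the others, and a difference between these was not tested. Of the 7 genes lsm2 to lsm8, which make the ring on U6 RNA, 5 were higher in wnt3a+chordin caps and 4 with kctd15, with medians of 0.70 and 0.62. Of the 6 others, which act in mRNA decay and translation (lsm1, lsm14a and lsm14b) or carry the same fold (lsm12), the homeologs of lsm14a were higher in both comparisons. The ring gene lsm4.S read 9.55, 9.32 and 9.59 on the lacZ arrays, 9.66, 9.64 and 9.62 with kctd15, 10.53, 10.37 and 10.31 with wnt3a and chordin, and 10.71, 10.55 and 10.42 with all 3. The 6 arrays of the wnt3a and chordin groups lay at least 0.65 above the others. Both comparisons gave 0.92 ± 0.12 (SE, adjusted p = 0.000119 and 0.00012).

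Its ring partner lsm7.L rose by 0.79 ± 0.11 and 0.74 ± 0.11 (SE, adjusted p = 0.000252 and 0.000383). The ring gene that is specific to the nuclear, U6 bound form, lsm8.S, rose by 0.96 ± 0.27 (SE, adjusted p = 0.0152), but the call was lost without lacZ repeat 1 or wnt3a+chordin repeat 2 (adjusted p up to 0.0627). With kctd15 it differed by 0.68 (adjusted p = 0.0688, and 0.0002 with the block). These values are those of the chosen probe set. The other probe sets of lsm8.S rose by 0.94 and 0.66 (adjusted p = 0.000714 and 0.00142). With kctd15 they rose by 0.75 and 0.77 (adjusted p = 0.00294 and 0.000529). The decay ring gene lsm1.S differed by 0.32 (adjusted p = 0.14, and 0.0221 with the block). For lsm14a.S the rises were 0.73 and 0.62 (adjusted p = 0.0180 and 0.0355). The first call was lost without lacZ repeat 1 or wnt3a+chordin repeat 2 or 3 (adjusted p up to 0.0738), and the call with kctd15 without kctd15 repeat 1 or wnt3a+chordin+kctd15 repeat 2 or 3 (adjusted p up to 0.137). The ring genes lsm3.S and lsm5.L differed by 0.42 and 0.45 in wnt3a+chordin caps. Their chosen probe sets passed only with the block, there (adjusted p = 0.00266 and 0.00128) and with kctd15 (0.0147 and 0.00237). Without the block, the other probe set of lsm3.S rose by 0.63 and, with kctd15, by 0.61 (adjusted p = 0.0387 and 0.0435). In wnt3a+chordin caps lsm12.L, lsm14b.L and lsm14b.S did not pass, and with kctd15 lsm14b.L passed with the block (adjusted p = 0.00396).

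Of the SR protein genes, 9 of 15 were higher in wnt3a+chordin caps and 7 of 15 with kctd15. At the top of all members stood srsf6.S, with 12.03, 12.20 and 12.61 on the lacZ arrays, 12.18, 12.46 and 12.48 with kctd15, 13.18, 13.53 and 13.56 with wnt3a and chordin, and 13.41, 13.43 and 13.28 with all 3 mRNAs. The gap between the groups with and without wnt3a and chordin was 0.57. The differences were 1.14 ± 0.17 (SE, 2.21-fold, adjusted p = 0.000304) and 1.00 ± 0.17 (2.00-fold, adjusted p = 0.000686).

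The SR related genes srsf11.L and srsf11.S rose by 0.88 ± 0.12 and 0.81 ± 0.13 (SE, adjusted p = 0.000239 and 0.000692), and with kctd15 by 0.45 and 0.50. The gene of the founding SR protein, srsf1.L, rose by 0.57 and 0.53 (adjusted p = 0.00267 and 0.00421), and srsf10.S by 0.63 and 0.76. The first call of srsf10.S was lost without lacZ repeat 1 or 2 or wnt3a+chordin repeat 3 (adjusted p up to 0.0602). For srsf7.L the rise was 0.85 ± 0.29 (SE, adjusted p = 0.0367). That call was lost without lacZ repeat 1 or 2 or wnt3a+chordin repeat 2 or 3 (adjusted p up to 0.132). At the other end, srsf2.L differed by 0.14 and srsf5.S by -0.02 (adjusted p = 0.215 and 0.906), and srsf5a.S, srsf9.S and srsf12.L by 0.15 to 0.23. With the block srsf9.S passed in wnt3a+chordin caps (adjusted p = 0.0301) and srsf12.L with kctd15 (0.0014).

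The member with the lowest value was srsf5a.L, which read 10.33, 10.33 and 10.88 on the lacZ arrays and 9.96, 10.07 and 10.24 with wnt3a and chordin. These groups did not overlap, by a narrow margin, and lacZ repeat 3 stood above the other lacZ arrays. The difference of -0.42 ± 0.17 (SE) had an adjusted p of 0.073, and of 0.00363 with the repeat number as a block. With kctd15 it was -0.07 (adjusted p = 0.776).

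**Figure D2:**
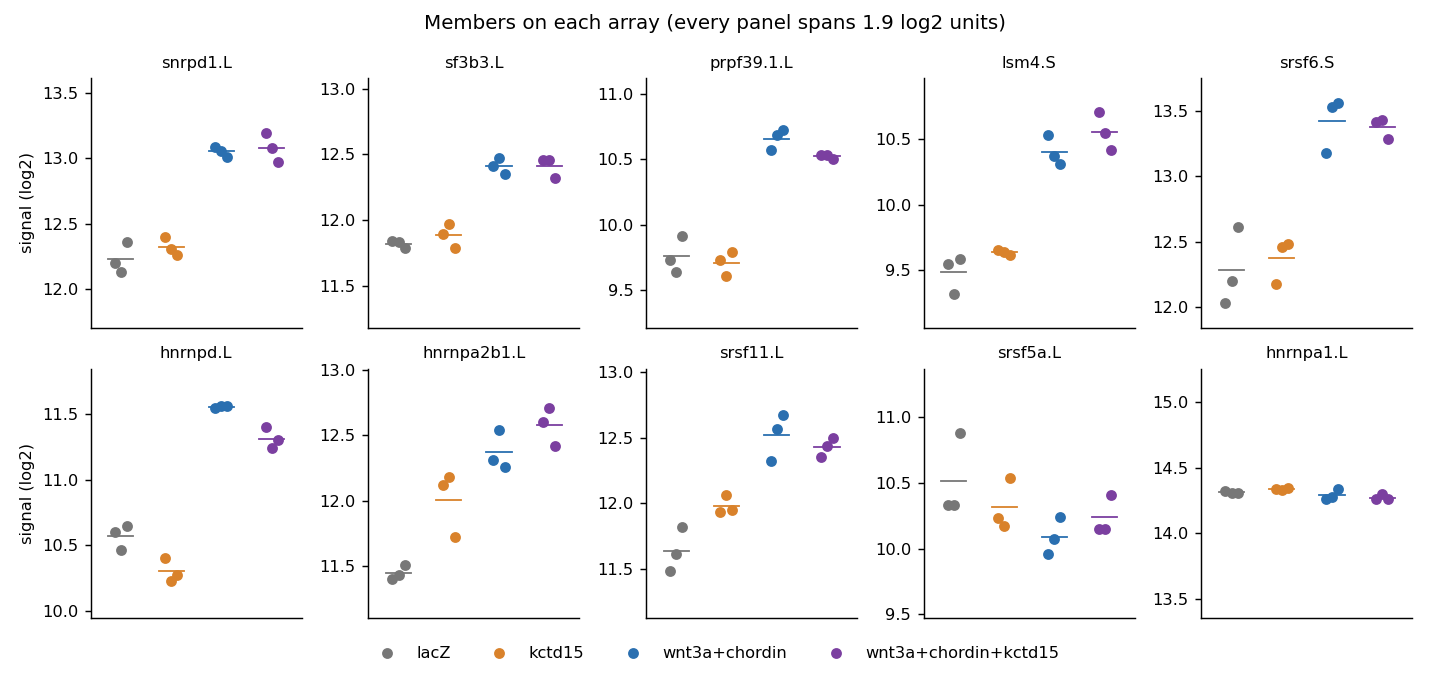
Log2 signal of 10 members on each of the 12 arrays, with a line at each group mean (n = 3); every panel has its own axis of the same span. In the panels of snrpd1.L, sf3b3.L, prpf39.1.L, lsm4.S, srsf6.S and hnrnpd.L the 6 arrays with wnt3a and chordin lie above the other 6, whereas hnrnpa1.L stays between 14.26 and 14.35.

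Of the hnRNP genes, 17 of 22 were higher in wnt3a+chordin caps and 12 of 22 with kctd15. The gene hnrnpd.L, which encodes an RNA binding protein of AU-rich elements, had the smallest p of all members. Its signals were 10.60, 10.46 and 10.65 in lacZ caps, 10.40, 10.23 and 10.27 in kctd15 caps, 11.55, 11.56 and 11.56 with wnt3a and chordin, and 11.40, 11.24 and 11.30 with all 3 mRNAs. The wnt3a and chordin groups lay at least 0.59 above the rest, and within each background the kctd15 arrays lay below those without it. The rises were 0.98 ± 0.10 (SE, adjusted p = 2.2e-05) and 1.02 ± 0.10 (adjusted p = 2.11e-05).

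The nuclear scaffold protein gene hnrnpu.S rose by 0.95 ± 0.15 (SE, adjusted p = 0.000519) and with kctd15 by 0.78 ± 0.15 (adjusted p = 0.00177), and hnrnpr.S by 0.67 and 0.70 (adjusted p = 0.00103 and 0.000721). For hnrnpa2b1.L the rises were 0.92 ± 0.14 and 0.57 ± 0.14 (SE, adjusted p = 0.000438 and 0.00833). The calls of hnrnpa0, hnrnpab, hnrnpdl, hnrnph1, hnrnph3, hnrnpc.L and the other members lay between 0.28 and 0.72 in wnt3a+chordin caps. The 5 hnRNP genes that did not pass there were hnrnpm.L (0.27), hnrnpc.S (0.23), hnrnpk.S (0.16), hnrnpa3.L (0.02) and hnrnpa1.L (-0.02). With the block hnrnpm.L and hnrnpc.S passed (adjusted p = 0.0153 and 0.0219). The signal of hnrnpa1.L was 14.31 to 14.32 in lacZ caps and 14.26 to 14.34 with wnt3a and chordin, near the top of the array's range, which ended at 15.58.

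**Figure D3:**
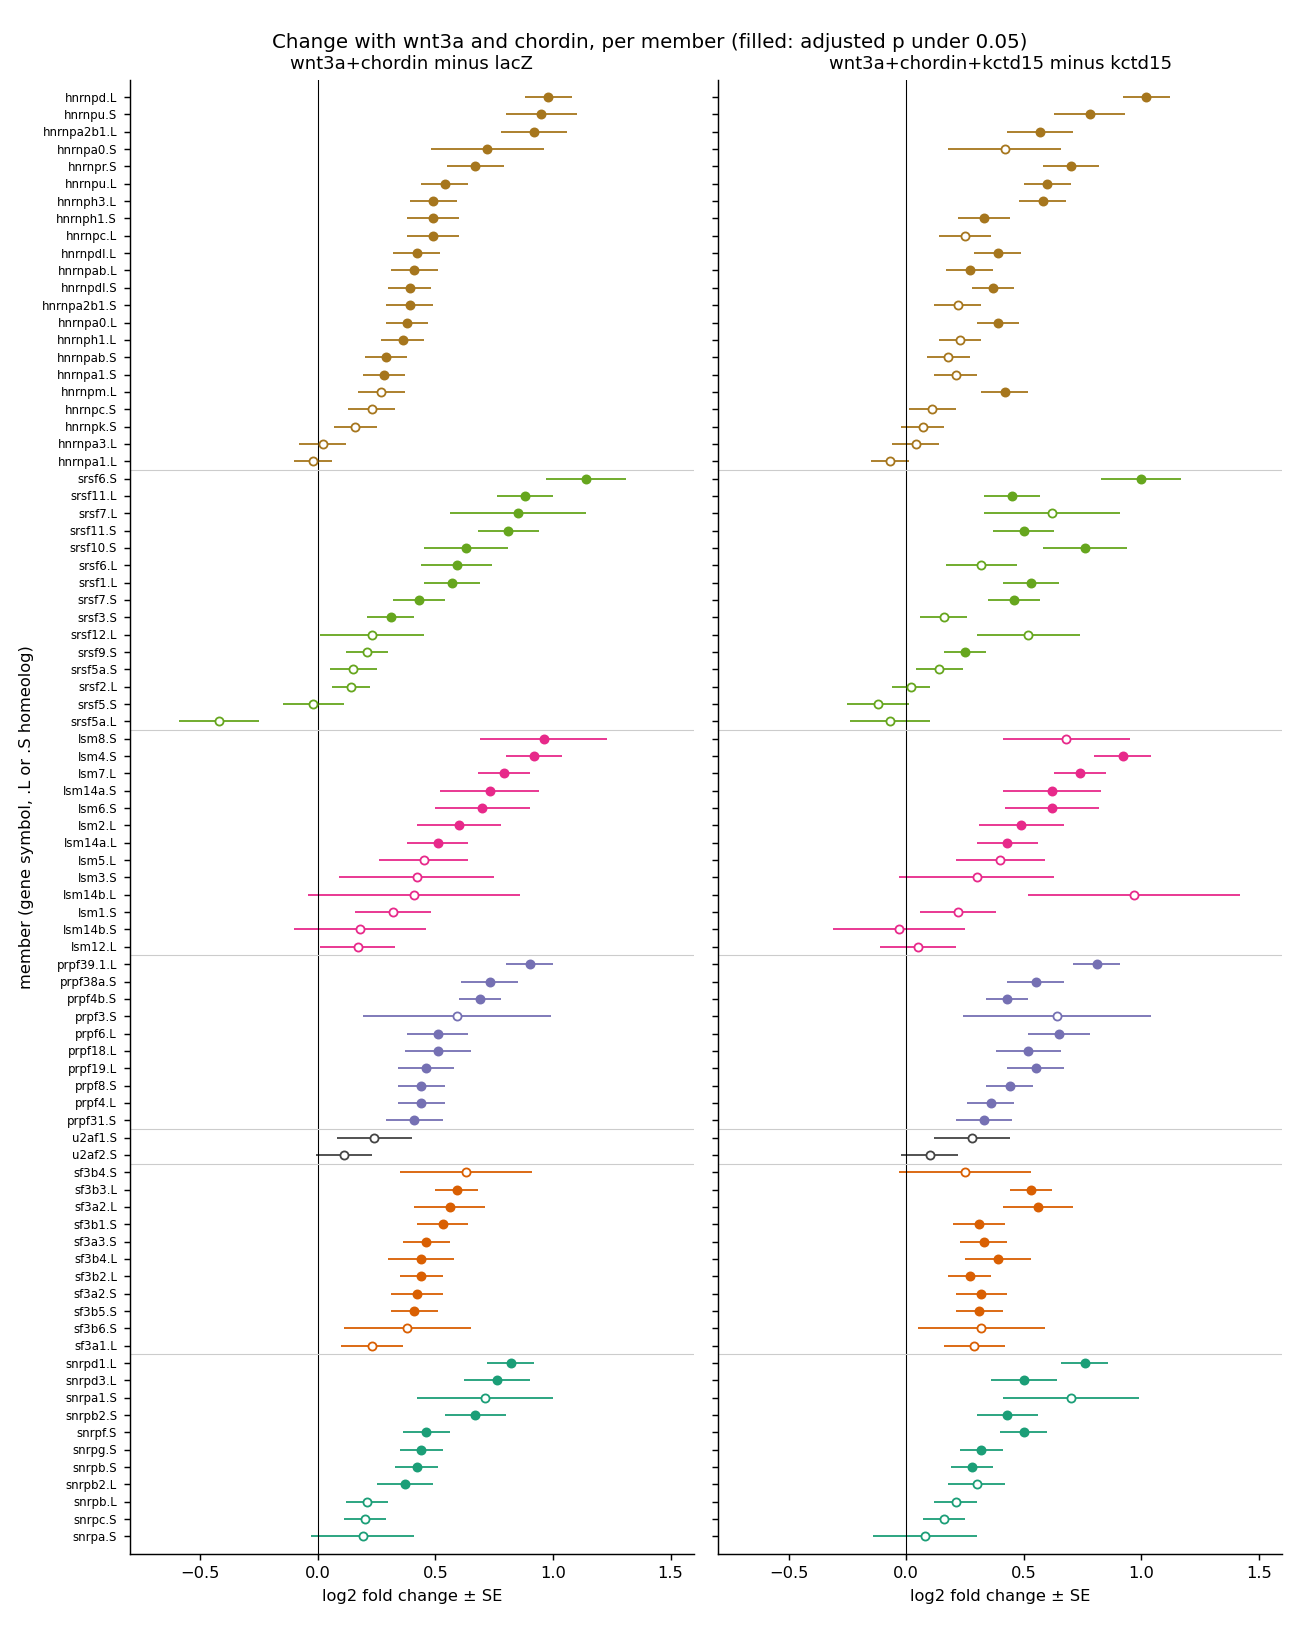
Log2 fold change ± SE of each of the 84 members for wnt3a+chordin minus lacZ (left) and wnt3a+chordin+kctd15 minus kctd15 (right), coloured by prefix and filled where the adjusted p was under 0.05. On the left 57 points are filled and on the right 48, all to the right of 0.

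Probe sets that the rule had set aside gave the same direction for the most part, though sizes differed between probe sets of a gene. The 36 members with several probe sets had 59 others, of which 34 were higher and 1 lower in wnt3a+chordin caps, with a median of 0.55, and 31 were higher and 0 lower with kctd15. The shares over all probe sets were 24.2% higher and 17.1% lower, and with kctd15 23.6% and 18.5%. None of the 59 was called against the chosen probe set of its gene. Signs matched those of the chosen probe sets in 55 and 54 of 59. Some examples were picked after their values were seen. The chosen probe set of u2af2.S differed by 0.11, and its other probe set rose by 0.55 ± 0.09 (SE, adjusted p = 0.000664). For snrpa1.S, not called with its chosen probe set, 3 of 5 others rose, by 0.85 to 1.00. The probe sets of hnrnpk.S disagreed: the chosen one differed by 0.16, another rose by 0.53 (adjusted p = 0.00232) and a further one fell by 1.04 (adjusted p = 0.0432), so no direction is given for that gene.

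Both homeologs were members for 18 genes. In wnt3a+chordin caps both were higher in 12 pairs, 1 of the pair in 4 and neither in 2, and no pair was called in opposite directions. With kctd15 both were higher in 5 pairs and 1 in 9. Single probe sets of the whole array were called higher in 24.2% and 23.6% of cases. The same count of pairs over all 2009 is not given here, so these pair counts have no background. The difference between homeologs, tested within each array over all 2009 pairs, passed in 4 of the 18 pairs in wnt3a+chordin caps, where 27.9% of all pairs passed. With the repeat number as a block 9 of 18 passed, where 42.3% of all pairs did. The .S gene rose more for srsf6, by 1.14 against 0.59 (difference .L minus .S -0.55 ± 0.17, SE, adjusted p = 0.0360), and for hnrnpu, by 0.95 against 0.54 (-0.41 ± 0.12, adjusted p = 0.0297). Other probe sets of hnrnpu.L rose by 0.55 ± 0.11 and 0.89 ± 0.15 (SE, adjusted p = 0.00273 and 0.000748). The size of the hnrnpu difference therefore depended on the probe set kept. The .L gene rose more for hnrnpa2b1, by 0.92 against 0.39 (0.54 ± 0.13, adjusted p = 0.0109). The other probe sets of hnrnpa2b1.L and hnrnpa2b1.S differed by 0.91 ± 0.31 and 0.54 ± 0.23 (SE, adjusted p = 0.0377 and 0.0946). With kctd15 these were at 0.60 and 0.92 (adjusted p = 0.156 and 0.00903), and the chosen ones at 0.57 and 0.22. Which copy rose more with kctd15 therefore depended on the probe set kept. For srsf5a the copies, neither of them called, differed by -0.57 ± 0.16 (adjusted p = 0.0197).

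With kctd15 the difference between homeologs passed in 2 of 18 pairs, against 29.3% of all pairs, and in 4 with the block, against 44.8%. The 2 were srsf6 again, at -0.69 ± 0.17 (SE, adjusted p = 0.0121), and lsm14b, at 1.00 ± 0.26 (adjusted p = 0.0131). The pair lsm14b was also the 1 pair that passed between kctd15 and lacZ caps, where the .L minus .S difference fell by 1.00 ± 0.26 (adjusted p = 0.0378). In that comparison 7.77% of all pairs passed. With the block 2 of the 18 did, where 15.7% of all pairs passed. There lsm14b.L read 7.75, 8.42 and 8.71 on the lacZ arrays and 6.66, 7.80 and 7.83 on the kctd15 arrays, and lsm14b.S read 7.64, 8.32 and 8.15 against 7.82, 8.58 and 8.12. The .L signals overlapped between the groups, and repeat 1 was the lowest of each group. The pair has low signals among the members, and both lsm14b comparisons use the same kctd15 arrays.

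**Figure D4:**
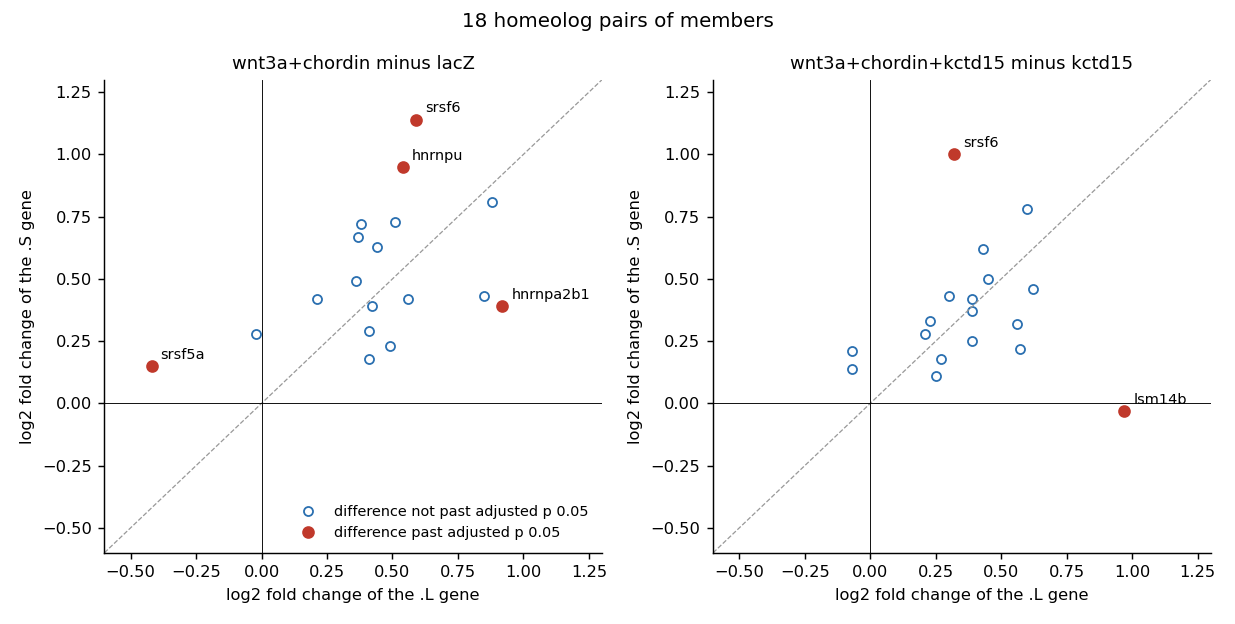
Log2 fold change of the .L gene (horizontal) and the .S gene (vertical) of 18 homeolog pairs for both comparisons with wnt3a and chordin; filled points mark pairs whose difference passed an adjusted p of 0.05, and the dashed line marks equal change. The pairs srsf6, hnrnpu, hnrnpa2b1 and srsf5a are filled on the left, and srsf6 and lsm14b on the right.

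With kctd15 alone and without the block, hnrnpa2b1.L was the 1 of 84 members that passed. Directions in this comparison, also for lsm14b and srrm2.L, rest on the arrays labelled kctd15, whose kctd15.L signal went against the label. Between kctd15 and lacZ caps 1 of 84 members was higher and 0 were lower, where 2.68% of all probe sets were higher and 4.31% lower, and 6 members had an unadjusted p under 0.05. The members' median difference was 0.09, with a range from -0.86 to 0.56. With the repeat number as a block 4 members were higher and 2 lower, where 7.63% of all probe sets were higher and 7.74% lower. The 95% confidence interval of the difference lay within ±1 log2 unit for 82 members and within ±0.5 for 58, so larger changes of those members lay outside it.

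The called gene was hnrnpa2b1.L, which encodes an RNA binding protein of splicing and transcript transport. It read 11.40, 11.43 and 11.51 on the lacZ arrays and 12.12, 12.18 and 11.72 on the kctd15 arrays. The groups did not overlap, and kctd15 repeat 3 was the nearest to the lacZ arrays. The difference was 0.56 ± 0.14 (SE, adjusted p = 0.0405), a call that was lost without any 1 of the lacZ arrays or without kctd15 repeat 1 or 2 (adjusted p up to 0.148). The other probe set of hnrnpa2b1.L did not pass, at 0.46 ± 0.31 (SE, adjusted p = 0.494). The homeolog hnrnpa2b1.S differed by 0.19 (adjusted p = 0.356), and its other probe set by -0.28 ± 0.23 (SE, adjusted p = 0.606).

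The members added by the block were srsf11.L, srsf11.S and snrpb2.S on the higher side and hnrnpd.L and lsm14b.L on the lower. Without the block, srsf11.L differed by 0.34 ± 0.12 (SE, adjusted p = 0.142), with lacZ arrays at 11.48, 11.61 and 11.82 and kctd15 arrays at 11.93, 12.06 and 11.95. With the block its adjusted p was 0.0344. For hnrnpd.L the difference was -0.27 ± 0.10 (SE, adjusted p = 0.126, and 0.0434 with the block). The lowest unadjusted p of the other prefixes belonged to sf3b2.L at 0.22 (adjusted p = 0.164), prpf38a.S at 0.21 (adjusted p = 0.375) and u2af1.S at -0.01 (adjusted p = 0.989).

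In caps with wnt3a and chordin, no difference of a splicing factor transcript with kctd15 passed the test. None of the 84 members was called by limma (0.142% of all probe sets were higher and 0.505% lower), and 1 had an unadjusted p under 0.05. The median difference was 0.00 and the range -0.30 to 0.20. The 95% interval lay within ±1 for 83 members and within ±0.5 for 67. The member with the smallest p was again hnrnpd.L, at -0.24 ± 0.10 (SE, adjusted p = 0.594), and none of its wnt3a+chordin+kctd15 arrays reached the wnt3a+chordin arrays. Neural crest genes fell in this comparison for 5 of 15 list members on the same arrays.

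The test of whether the kctd15 difference changed with wnt3a and chordin called 0 of 84 members by limma, where 0.708% of all probe sets were called upward and 0.434% downward, and 1 member had an unadjusted p under 0.05. That member was srsf11.L, with -0.43 ± 0.17 (SE, adjusted p = 0.36): kctd15 arrays were 0.34 above lacZ arrays and -0.09 apart from the wnt3a+chordin arrays once those mRNAs were present. For hnrnpa2b1.L the value was -0.36 ± 0.20 (SE, adjusted p = 0.581). No homeolog pair of members passed in this test or between the wnt3a+chordin groups, where 0.996% and 0.199% of all pairs did. The kctd15 comparisons share no array, and their differences across the 84 members had a Pearson correlation of 0.52 and a Spearman correlation of 0.31, against 0.26 and 0.18 over all 11303 genes.

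**Figure D5:**
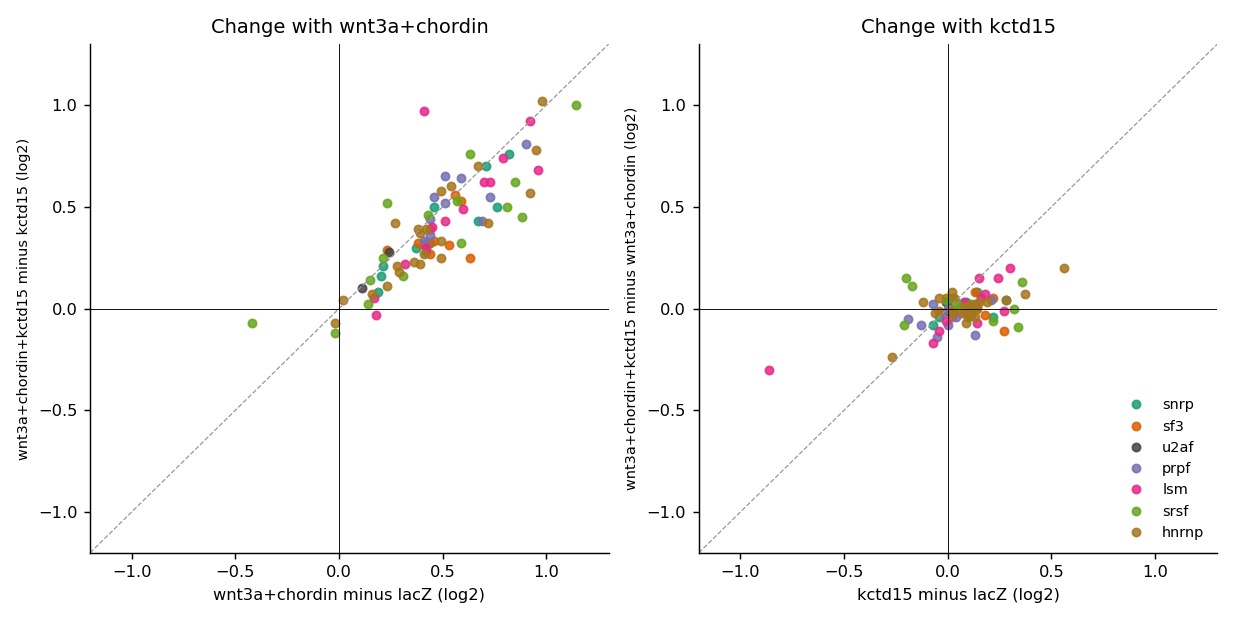
Log2 fold change of each of the 84 members in comparisons that share no array, coloured by prefix: wnt3a and chordin without and with kctd15 (left), and kctd15 without and with wnt3a and chordin (right); the dashed line marks equal change. On the left 81 members lie above 0 on the horizontal axis and 80 on the vertical; on the right the vertical values stay between -0.30 and 0.20.

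Splicing genes outside the symbol rule were read from a list of 105 measured genes, among them helicases, other snRNP proteins and tissue regulators of splicing. In wnt3a+chordin caps 63 were higher and 3 lower, with a median of 0.42, and with kctd15 56 were higher and 3 lower, with the same median. Over all probe sets 24.2% were higher and 17.1% lower in the first comparison, and 23.6% and 18.5% in the second. Between the kctd15 and lacZ caps 0 were higher and 1 lower (2.68% and 4.31% of all probe sets). In caps with wnt3a and chordin kctd15 called none (0.142% of all probe sets higher and 0.505% lower). The list genes with the largest changes were regulators of neural and epithelial splicing, and their changes were far above those of the members.

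The neural regulator nova2.L read 5.50, 6.05 and 8.61 on the lacZ arrays, 5.99, 6.67 and 7.76 with kctd15, 11.23, 11.79 and 11.35 with wnt3a and chordin, and 11.42, 12.04 and 10.93 with all 3 mRNAs. Repeat 3 was the highest of the lacZ and of the kctd15 arrays, and the groups with and without wnt3a and chordin did not overlap. The differences were 4.74 and 4.66 (adjusted p = 0.000393 and 0.00043). The next largest rises were those of celf3.S by 4.14 and 4.06, celf3.L by 4.10 and 4.15, and nova1.L by 4.01 and 3.94. Other list genes of these and related families were picked after their values were seen. In wnt3a+chordin caps celf1.L rose by 0.67 and celf1.S by 0.42 (adjusted p = 0.0153 and 0.014). Not passing there were rbfox2.L at -0.53 (adjusted p = 0.171), rbfox2.S at -0.06 (0.807) and celf2.L at -0.07 (0.796). The group means of celf2.L were 4.33 to 4.46, below the lower quartile of all probe set means (5.2), so its value does not show an unchanged transcript.

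In the opposite direction, the epithelial splicing regulator esrp1.L read 12.93, 13.03 and 12.91 on the lacZ arrays and 11.23, 9.69 and 11.39 with wnt3a and chordin. Every lacZ array was above every wnt3a+chordin array, and wnt3a+chordin repeat 2 was the lowest. The difference was -2.19 and, with kctd15, -2.10 (adjusted p = 0.00128 and 0.00165). For ptbp3.S, a polypyrimidine tract binding gene, it was -1.98 and -1.80, and for gemin8.S, of the complex that loads Sm rings, -0.97 and -1.28 (called in both comparisons). Related list genes did not fall with them in wnt3a+chordin caps. There ptbp1.L and ptbp1.S differed by 0.14 and -0.16 (adjusted p = 0.717 and 0.601). Of the Sm loading complex, smn1.L rose by 0.32 (adjusted p = 0.0313). Its genes gemin2.S, gemin6.L and smn1.S differed by 0.57, 0.16 and 0.64 (adjusted p = 0.103, 0.51 and 0.495). The 1 list gene lower in kctd15 caps was srrm2.L, a spliceosome protein gene, at -0.71 (adjusted p = 0.0248, and up to 0.0944 without a lacZ array or kctd15 repeat 1 or 3).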

How the data were processed

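The deposited table held log2 signals, 1 per probe set and array, for 12 arrays in 4 groups, and the authors used Partek per the submitters' processing notes. Version, background correction and summarisation: not given in the sources used here. All 12 columns were mapped by their labels. Control (96) and reporter (64) probe sets were left out. Probe sets were named from the platform annotation updated through gene IDs, and all 143 member probe sets matched.

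All 12 arrays were fitted in limma 3.58.1 (R 4.3.3) with 4 group means, on the log2 values as deposited with no filter, and p-values (two-sided, moderated) were Benjamini-Hochberg adjusted over all tested probe sets per comparison. Members and lists were chosen with earlier results of these data known. Named members were, per comparison and prefix, up to 3 per direction with the largest change among those called, otherwise the smallest p, plus homeolog pairs past the threshold and the largest called genes of the other splicing list. The code was tested on data simulated with independent arrays and with changes larger than those of most members. That run does not cover arrays that deviate together or changes as small as those of most members. Arrays give no counts, so their number limits the precision.

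Arrays with the same repeat number deviated together: the correlation of their deviations from the group means was 0.18 to 0.71 over 18 pairs, against -0.51 to 0.10 over 36 pairs of different number. Deviations within a group sum to 0. Low correlations for different numbers therefore follow in part from high ones for the same number and are no separate evidence. The numbers were taken to pair the arrays only in the alternative fit with the repeat number as a block. Counts, SE and p-values given without mention of the block come from the fit that leaves this pairing out.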

Additional observations from a re-analysis of the deposited data

Results flagged for a closer look

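Some probe sets read a pair of homeologs at once and were left out of the members because they carry both symbols, and 4 of them belong to splicing factor genes. They showed a difference between wnt3a+chordin and lacZ caps in data not used above. The shared probe set of srsf11.L and srsf11.S differed by 0.83 ± 0.13 log2 units (SE, adjusted p = 0.000524), that of prpf4b.L and prpf4b.S by 0.66 ± 0.11 (adjusted p = 0.000808), that of snrpd3.L and snrpd3.S by 0.63 ± 0.11 (adjusted p = 0.000976) and that of hnrnpa2b1.L and hnrnpa2b1.S by 0.39 ± 0.10 (adjusted p = 0.00918). With kctd15 present the first 3 were also higher, at 0.64, 0.51 and 0.42, and the last differed by 0.19 (adjusted p = 0.158). Over all probe sets 24.2% were higher without kctd15 and 23.6% with it. Between kctd15 and lacZ caps the shared probe set of hnrnpa2b1.L and hnrnpa2b1.S differed by 0.19 ± 0.10 (SE, adjusted p = 0.335). Groups of 3 arrays are too small for the test of single outlying arrays used here.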

How the results depend on the processing

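With the repeat number as a block, which pairs the arrays, 70 members were higher and 1 lower in wnt3a+chordin caps and 66 higher with kctd15; every member called without the block was called with it. In the kctd15 against lacZ comparison the block gave 4 higher and 2 lower, and the homeolog pairs past the threshold were 9, 4 and 2 in wnt3a+chordin, wnt3a+chordin+kctd15 and kctd15 caps. The 1 member higher in kctd15 caps was not called (0) with the mean of all probe sets of a symbol, with only the groups of the comparison, without lacZ repeat 3 and wnt3a+chordin+kctd15 repeat 2, or without these and wnt3a+chordin repeats 2 and 3. Without single arrays or numbers its count was 0 to 1. Leaving out each array gave 45 to 56 higher members in wnt3a+chordin caps and 34 to 43 with kctd15. Over all 32475 probe sets, 6364 to 7134 and 6366 to 6992 were higher in those runs. Of the 57 and 48 members, 42 and 29 were called each time, and every sign was kept. Leaving out a repeat number, which removes 4 arrays, gave 24 to 42 and 17 to 27. Fitting only the groups of the comparison gave 50 and 31. Without lacZ repeat 3 and wnt3a+chordin+kctd15 repeat 2, which are high in muscle genes, 55 and 34 members and 7047 and 6655 of 32475 probe sets were higher. Leaving out wnt3a+chordin repeats 2 and 3 too, chosen after seeing the data, gave 14 and 22, with fewer arrays, and the part of muscle genes was not tested. Centring each array on its median gave 60 and 42, quantile normalization 56 and 47, array weights 59 and 43, and a variance prior with trend 64 and 54. In the same order, 8610 and 7306, 8033 and 7576, 8693 and 7401, and 7887 and 7679 of 32475 probe sets were higher. In caps with wnt3a and chordin no alternative run called a member for kctd15. With 3 arrays a group, a p above the threshold does not show that a transcript was unchanged.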
